A study of Mus musculus with 9 samples.

Results

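Oxidative phosphorylation is the route by which mitochondria turn the electrons of NADH and succinate into ATP. Complexes I to IV form the electron transport chain, complex V is the ATP synthase, and their subunits come from separate genomes. Most are encoded in the nucleus, translated in the cytosol and imported, whereas mitochondrial DNA encodes a small core set that is transcribed and translated inside the organelle. The genes described here are the protein-coding genes of the deposited expression table whose symbols begin with Ndufa, Ndufb, Ndufc, Ndufs or Ndufv, with Uqcr, with Cox and a digit, with Atp5 or with mt-, together with Sdha, Sdhb, Sdhc and Sdhd. There were 116 such genes among 22046 protein-coding genes and 54532 genes in all, 103 of them nuclear and 13 mitochondrially encoded. The symbols alone chose them and no measured value was used.

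Gene expression had been measured by RNA sequencing of 9 libraries of cardiosphere-derived cells (CDCs) from the ventricle of C57BL/6 mice, which the study's methods describe as grown from the epicardium of 6-week-old animals. The labels give P0 for primary cells (pECDCs), P30 for cells at passage 30 that had been immortalised by lentiviral hTERT, a telomerase subunit (iECDCs), and SBT for iECDCs at passage 30 kept for 3 days with SB431542, which blocks signalling by the type I receptor of TGF-β. Each group had 3 libraries. The study's methods instead name pECDCs of passage 3, and an epithelial clone derived from pECDCs as the cells given SB431542, so in the SBT comparisons the starting cell and the inhibitor cannot be told apart. The labels were followed. The methods also give 2 biological replicates per condition, and nothing says that the 3 libraries of a group came from separate cultures, so p-values measure only the spread between these libraries, which may be technical. The iECDCs had been selected with puromycin after transduction, and the SBT cells carry the same transgene if the labels are right.

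Total counts lay between 16568306 and 23951392 per library, and the members took between 2.12% and 2.61% of them. Counts of pairs of libraries in the same group differed by a chi-square per degree of freedom of 2.70 to 4.61 except where P30 replicate 3 (24.9 and 30.8) or SBT replicate 2 (70.3 and 71.5) was in the pair. Both libraries therefore stood apart from their groups. The main counts of members that passed, and some single members, are given with and without them. Changes of genes outside the symbol rule are given only with all libraries. The summed level of the CDC markers Eng, Thy1, Tbx18, Gata4 and Upk3b was 268 to 314 FPKM (reads per kilobase of gene, scaled to library size). Most of this sum came from Thy1, Eng and Gata4. Tbx18 had means of 19.6, 22.4 and 34.8 FPKM in P0, P30 and SBT. Upk3b was near 0 in P0 and P30 (means 0.13 and 0.12 FPKM) and had a mean of 1.28 FPKM in SBT. The summed level of 8 cardiomyocyte markers was 0.328 to 2.31 FPKM, that of 5 endothelial markers was at most 0.165 FPKM, and that of 5 haematopoietic markers was 4.40 to 6.89 FPKM in P0 and P30 and 8.41 to 9.90 FPKM in SBT. The summed level of 6 epithelial markers was 31.4 to 32.4 FPKM in P0, 38.8 to 41.7 FPKM in P30 and 37.0 to 49.8 FPKM in SBT. The epithelial sum came from Tjp1 and Krt19, since Cdh1, Epcam, Krt8 and Krt18 had at most 4 counts per library. Of the haematopoietic markers, Cd14 had means of 4.84 FPKM in P0 and 8.40 FPKM in SBT, and Cd68 had 1.74 and 0.95 FPKM. Ptprc, Itgam and Adgre1 had at most 4 counts per library. The part of these other cell types in the results was not tested. In bulk RNA, fewer cells that express a gene and less RNA per cell cannot be told apart.

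The mitochondrial mRNAs are shown first by the ends of their reading frames. Mitochondrial DNA is transcribed from both strands as long RNAs, and most messages are released where tRNAs are cut out between them. The lines give the opening 30 bases on GRCm38, 5′ to 3′, in map order, with the first codon in capitals. They come from GENCODE transcripts.

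mt-Nd1: GTGttctttattaatatcctaacactcctc

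mt-Nd2: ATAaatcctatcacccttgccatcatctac

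mt-Co1: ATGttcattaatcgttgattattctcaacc

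mt-Co2: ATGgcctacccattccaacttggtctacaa

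mt-Atp8: ATGccacaactagatacatcaacatgattt

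mt-Atp6: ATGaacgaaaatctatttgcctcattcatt

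mt-Co3: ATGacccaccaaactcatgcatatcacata

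mt-Nd3: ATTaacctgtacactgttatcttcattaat

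mt-Nd4l: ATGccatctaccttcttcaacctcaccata

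mt-Nd4: ATGctaaaaattattcttccctcactaatg

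mt-Nd5: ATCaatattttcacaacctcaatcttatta

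mt-Nd6: ATGaataattatatttttgttttaagttca

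mt-Cytb: ATGacaaacatacgaaaaacacacccatta

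The codons GTG, ATA, ATT and ATC stood at the start of mt-Nd1, mt-Nd2, mt-Nd3 and mt-Nd5, subunits of complex I, and the other 9 messages began with ATG. The message of mt-Nd6, also a complex I subunit, lies on the minus strand (chrMT:13552-14070) and the other 12 on the plus strand. The frames of mt-Atp8 (chrMT:7766-7969) and mt-Atp6 (chrMT:7927-8607), subunits of the ATP synthase, overlap. Those of mt-Nd4l (chrMT:9877-10173) and mt-Nd4 (chrMT:10167-11544) overlap as well. Reads in a shared stretch cannot be assigned to either gene. No tRNA lies between such frames, so both members of a pair may be carried on the same RNA. They are counted here as separate genes and messages. The lengths of mt-Co3 (784 bases), mt-Nd4 (1378 bases) and mt-Cytb (1144 bases) leave a remainder of 1 base after whole codons. Their last 30 bases end in a lone T, in capitals here, which polyadenylation is known to complete to a stop codon.

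mt-Co3: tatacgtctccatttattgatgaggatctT

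mt-Nd4: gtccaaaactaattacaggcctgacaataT

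mt-Cytb: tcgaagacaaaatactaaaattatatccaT

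For 7 of the 13 messages a near-identical nuclear copy is annotated as a gene of its own, side by side on the minus strand of chromosome 1 between chr1:24611535 and chr1:24616197 (GRCm38), and reads could be split between them. The copies of mt-Co2, mt-Atp6, mt-Co3, mt-Nd4l and, over 876 bases, mt-Nd4 were 100% identical to the mitochondrial sequence. That of mt-Co1 covered 483 bases at 99.8% identity, and a further copy of mt-Co1, Gm13340 on chromosome 2, was 97.6% identical over 1545 bases and was not among the added counts. The copy of mt-Nd3 is Gm28438, and it differed from mt-Nd3 by T3C, counted from 1 at the first base of the frame and shown here in capitals over the opening 30 bases.

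mt-Nd3: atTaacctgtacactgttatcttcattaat

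Gm28438: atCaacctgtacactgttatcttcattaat

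Gm28438 was counted 3.64 to 14.9 times for each count of mt-Nd3, whereas the copy of mt-Co1 had 0.00216 to 0.00289 counts for each count of mt-Co1 and that of mt-Nd4 had 0.0111 to 0.0189. For mt-Co2, mt-Atp6, mt-Co3 and mt-Nd4l the copies had 0.243 to 1.19 counts for each mitochondrial count. The levels of these messages are therefore uncertain, most of all that of mt-Nd3, and the changes given for them were also computed with the counts of the copies added. How reads that match both places were counted is not stated. If they were dropped, adding the copies does not restore them. Among annotated GENCODE transcripts no copy of at least 100 bases at 97% identity was found for mt-Nd1, mt-Nd2, mt-Nd5, mt-Nd6, mt-Cytb or mt-Atp8. The rest of the genome was not searched, so copies without an annotation are not excluded. This holds above all for mt-Atp8, which lies on the map between mt-Co2 and mt-Atp6, whose copies are neighbours on chromosome 1.

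The level of the mitochondrial mRNAs in primary cells spanned from a mean of 6.28 FPKM for mt-Atp8 to 3172 FPKM for mt-Nd1. mt-Nd1 measured 3017, 3086 and 3413 FPKM in P0, 3657, 3831 and 1909 FPKM in P30, and 2372, 2283 and 2374 FPKM in SBT. P30 replicate 3 alone in its group lay below every P0 and every SBT library. mt-Nd2, another core subunit of complex I that follows mt-Nd1 on the map, measured 1372, 1428 and 1531 FPKM in P0, 1433, 1586 and 826 FPKM in P30, and 1054, 945 and 969 FPKM in SBT. Its pattern over the libraries was that of mt-Nd1, with all SBT libraries below all P0 libraries and P30 replicate 3 lowest.

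mt-Cytb, the cytochrome b of complex III, measured 903, 972 and 1041 FPKM in P0, 1028, 1036 and 1483 FPKM in P30, and 1853, 2005 and 1962 FPKM in SBT. mt-Co1, the catalytic subunit of complex IV, measured 2704, 2870 and 3070 FPKM in P0, 2756, 2943 and 3578 FPKM in P30, and 5141, 4152 and 5009 FPKM in SBT. For both messages every SBT library was above every P0 and P30 library, and P30 replicate 3 was the highest of its group. mt-Nd6 measured 437, 468 and 517 FPKM in P0, 527, 508 and 383 FPKM in P30, and 493, 466 and 494 FPKM in SBT, so that its groups overlapped in all 3 comparisons.

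**Figure D1:**
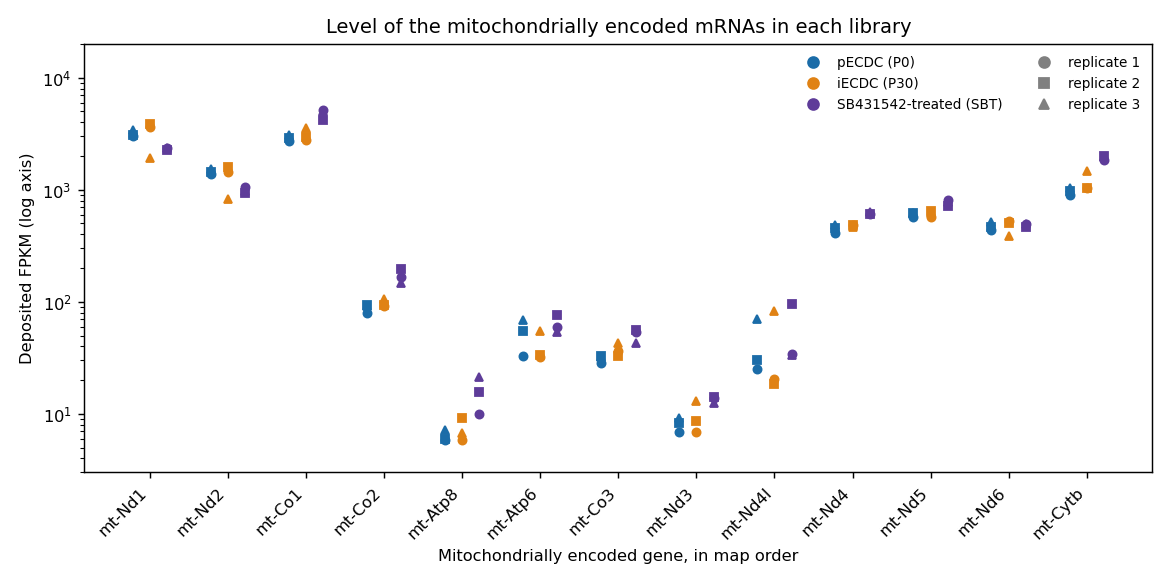
Deposited FPKM on a log axis for the 13 mitochondrially encoded mRNAs in map order. Each point is 1 library, coloured by group and shaped by replicate. mt-Nd1 and mt-Nd2 are lower in SBT than in P0, mt-Co1 and mt-Cytb are higher, and P30 replicate 3 (triangles) lies apart from the other P30 libraries for mt-Nd1, mt-Nd2 and mt-Cytb.

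Between pECDCs and iECDCs, the comparison that asks what hTERT and passage changed, no mitochondrial mRNA passed the threshold of an adjusted p of 0.05 (edgeR quasi-likelihood test, Benjamini-Hochberg adjustment over all tested genes). At an unadjusted p under 0.05, 0 of the 13 passed as well, and DESeq2 also called 0. All 13 were tested, their median log2 fold change was 0.08, and 16.4% of the 13752 genes tested passed. The largest values were -0.39 ± 0.27 (SE) for mt-Atp6 and 0.27 ± 0.14 for mt-Cytb. Without P30 replicate 3 the result was different. mt-Nd1 then rose by 0.23 on the log2 scale (adjusted p = 0.000951, edgeR), having been at -0.03 ± 0.22 with it, while mt-Atp6 fell by 0.67 (adjusted p = 0.0202) and mt-Nd4l fell by 1.11 (adjusted p = 0.0212). With all libraries mt-Nd4l was at -0.08 ± 0.57, with levels of 18.4 to 82.8 FPKM that were highest in replicate 3 of both groups, and its value was 0.52 without P0 replicate 3. In that fit 31.7% of all tested genes passed.

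After SB431542 the mitochondrial mRNAs did not move together. Against iECDCs 6 of the 13 rose, 0 fell and 7 did not pass (edgeR quasi-likelihood test, Benjamini-Hochberg adjustment), a share of 46.2% higher beside 16.0% of the 13559 genes tested, and 30.0% of all tested genes passed in either direction. The median log2 fold change of the 13 was 0.46 and that of all tested genes was 0.00145. The libraries of the groups did not overlap for 6 of the 13, all of them higher in SBT, beside 23.0% of all tested genes higher without overlap. These include mt-Nd5, which did not pass. They leave out mt-Co3, which passed although P30 replicate 3 (42.99 FPKM) lay above SBT replicate 3 (42.92 FPKM). mt-Co2, the copper-binding subunit of complex IV, rose from 92.6, 94.4 and 107 FPKM to 168, 195 and 147 FPKM, by 0.81 ± 0.13 on the log2 scale (adjusted p = 0.00398). mt-Cytb rose by 0.73 ± 0.17 (adjusted p = 0.0158) and mt-Co1 by 0.64 ± 0.17 (adjusted p = 0.0234). mt-Atp8, at only 5.83 to 21.4 FPKM in these libraries, rose by 1.13 ± 0.34 (adjusted p = 0.0381), mt-Co3, the third mitochondrial subunit of complex IV, by 0.46 ± 0.15 (adjusted p = 0.0453) and mt-Nd4 by 0.38 ± 0.11 (adjusted p = 0.0334).

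mt-Nd1 and mt-Nd2 had negative values, -0.41 ± 0.25 (adjusted p = 0.242, edgeR) and -0.36 ± 0.23 (adjusted p = 0.258), and did not pass. mt-Nd6 was at 0.05 ± 0.14. Without P30 replicate 3, mt-Nd1 fell by 0.68 (adjusted p = 0.013) and mt-Nd2 fell by 0.61 (adjusted p = 0.018), when 25.4% of all tested genes passed. Without both libraries that stood apart 10 of the 13 rose and 2 fell, in a fit in which 64.5% of all tested genes passed, 32.6% higher and 31.9% lower. Of the 6 calls, mt-Co2 alone held when any of the 6 libraries was left out, with a highest adjusted p of 0.0303 over the 19 alternatives tried. The other 5 were each lost without P30 replicate 1 and also without P30 replicate 2, with adjusted p of 0.0682 to 0.17 and no change of direction. Of these, mt-Cytb, mt-Co1 and mt-Nd4 were also lost without SBT replicate 1 or SBT replicate 3, mt-Co3 without SBT replicate 1, mt-Atp8 without P30 replicate 3 or SBT replicate 3, and mt-Nd4 without P30 replicate 3. With the counts of the copies added, 7 rose, among them mt-Co2 at 0.80 (adjusted p = 0.00265), mt-Co3 at 0.43 (adjusted p = 0.0387) and mt-Atp6 at 0.67 (adjusted p = 0.0474).

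Against pECDCs, which share the SBT libraries with the previous comparison, 8 mitochondrial mRNAs rose and 2 fell (edgeR, Benjamini-Hochberg). Of the 14015 genes tested 34.8% passed, 17.9% higher and 17.0% lower. For the same 8 and 2 messages the libraries did not overlap, beside 25.1% of all tested genes higher and 26.4% lower without overlap. mt-Nd1 fell by 0.43 on the log2 scale (SE 0.0867, adjusted p = 0.00992) and mt-Nd2 fell by 0.54 (SE 0.0873, adjusted p = 0.00438). mt-Cytb rose by 1.01 ± 0.09 (adjusted p = 0.000515), mt-Co2 by 0.96 ± 0.12 (adjusted p = 0.00171), mt-Co1 by 0.74 ± 0.12 (adjusted p = 0.00402) and mt-Co3 by 0.72 ± 0.12 (adjusted p = 0.0051). mt-Nd3, mt-Nd4, mt-Nd5 and mt-Atp8 also rose, by 0.36 to 1.33, whereas mt-Nd6 (0.04 ± 0.08), mt-Atp6 and mt-Nd4l did not pass. The 2 messages that fell are the first on the map after the ribosomal RNAs, and the message on the other strand was the one nearest 0. With the copies added mt-Nd3 was at 0.25 (adjusted p = 0.233) and no longer passed. The call on mt-Nd1 was lost without P0 replicate 3 (-0.38, adjusted p = 0.0544), with all 9 libraries in the fit (adjusted p = 0.138) and with limma on log2(FPKM + 1) or log2(FPKM + 0.1) (adjusted p = 0.0523 and 0.0668). That on mt-Nd2 was lost with all 9 libraries in the fit (adjusted p = 0.0541), that on mt-Atp8 without any one of the P0 libraries and that on mt-Nd3 without P0 replicate 1 or P0 replicate 2. That on mt-Nd5 was lost without any one of the P0 libraries, SBT replicate 1 or SBT replicate 3.

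**Figure D2:**
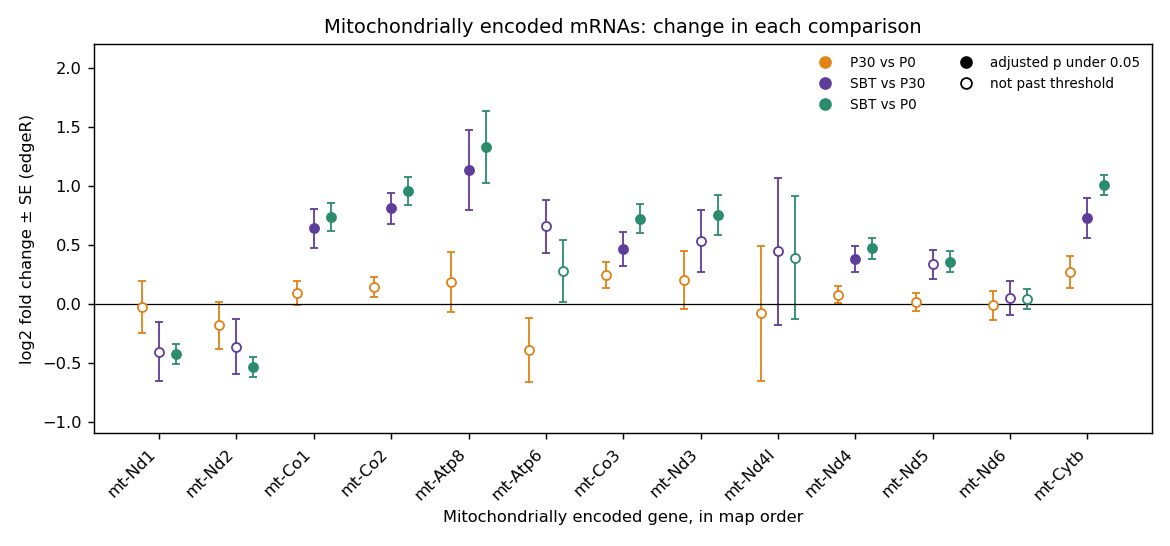
Log2 fold change with its SE (edgeR) of the 13 mitochondrially encoded mRNAs in the 3 comparisons, filled where the adjusted p is under 0.05. The values of mt-Nd1 and mt-Nd2 in both SBT comparisons lie below 0, that of mt-Nd6 lies near 0, and the others lie above 0.

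The ratio of messages within a library does not depend on library size. The FPKM of mt-Cytb over that of mt-Nd1 was 0.299, 0.315 and 0.305 in P0, 0.281, 0.270 and 0.776 in P30, and 0.781, 0.878 and 0.826 in SBT. P30 replicates 1 and 2 were near the primary cells in this ratio, and P30 replicate 3 was near the treated cells. The ratio of mt-Co1 to mt-Nd1 followed the same order, with 0.896 to 0.930 in P0, 0.754, 0.768 and 1.87 in P30, and 1.82 to 2.17 in SBT. The ratio of mt-Nd2 to mt-Nd1, neighbours on the map, was between 0.392 and 0.463 in all 9 libraries. P30 replicate 3 also had the smallest share of counts on the mitochondrial ribosomal RNAs, 0.0346% beside 0.0757% and 0.0804% in the other P30 libraries, and its part in these ratios was not tested.

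**Figure D3:**
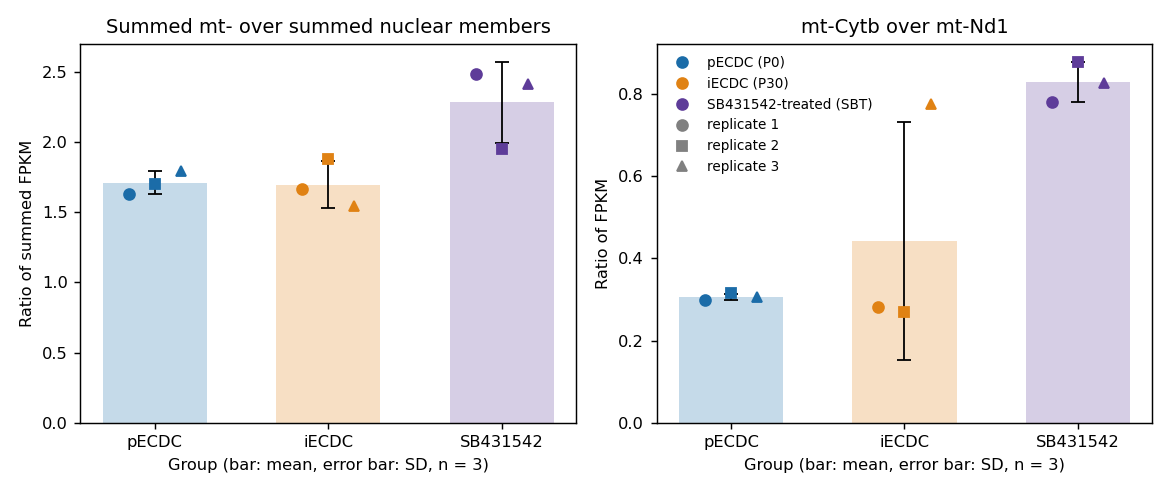
Left, summed FPKM of the 13 mitochondrial mRNAs divided by that of the 103 nuclear members. Right, FPKM of mt-Cytb divided by that of mt-Nd1. Points are libraries, bars are group means and error bars are SDs (n = 3). In the right panel P30 replicate 3 lies at 0.776, beside the SBT libraries, and the other P30 libraries lie at 0.270 and 0.281.

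Summed over all members, mitochondrial mRNA stood at 1.71 ± 0.0819 (SD, n = 3) times the nuclear sum in P0, at 1.70 ± 0.168 times in P30 and at 2.28 ± 0.288 times in SBT, as a ratio of summed FPKM. The libraries were at 1.63, 1.70 and 1.79 in P0, 1.66, 1.88 and 1.55 in P30, and 2.48, 1.95 and 2.41 in SBT, so all SBT libraries lay above all others and P0 and P30 overlapped. Both sums moved. The mitochondrial sum was 10488 ± 844 FPKM in P30 and 12277 ± 563 FPKM in SBT, and the nuclear sum was 6190 ± 207 FPKM in P30 and 5422 ± 470 FPKM in SBT. SBT replicate 2 had the lowest ratio of its group, with a nuclear sum of 5961 FPKM beside 5106 and 5198 FPKM in the other treated libraries.

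The median level of the nuclear members was below that of the mitochondrial mRNAs. Their median level was 38.5 FPKM in P0, 40.0 FPKM in P30 and 34.1 FPKM in SBT, beside 449, 473 and 484 FPKM for the mitochondrial mRNAs. In primary cells the median was 83.9 FPKM over the 11 nuclear subunits of complex IV, 77.8 over the 8 of complex III, 56.2 over the 17 of complex V, 49.9 over the 4 of complex II and 35.8 over the 36 of complex I. The 18 assembly factors, which help to build the complexes without staying in them, had a median of 6.24 FPKM. The highest member of each complex was Cox6a1 (complex IV), Atp5b (the catalytic β subunit of complex V), Ndufa2 (complex I), Uqcr10 (complex III) and Sdhd (a membrane anchor of complex II). Of the 103, 93 had at least 10 counts in every library, and 5 had at most 3 counts in every library. Among annotated GENCODE transcripts a near-identical stretch elsewhere (at least 100 bases at 97% identity) was found for 21, both identifiers of Atp5o included. Cox7a2l, Ndufs5, Uqcrb and Ndufab1 matched processed pseudogenes, and their counts are uncertain for that reason. For Ndufaf7, Cox17 and Ndufc1 the matches were stretches of at most 141 bases in transcripts of other genes and not copies of the gene.

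Between pECDCs and iECDCs the nuclear members hardly moved. Of the 96 tested, 0 rose and 2 fell (2.08%, edgeR quasi-likelihood test with Benjamini-Hochberg adjustment), beside 7.21% of all tested genes higher and 9.21% lower. The median log2 fold change was 0.01 over the members and -0.00182 over all tested genes. None of the 75 tested subunits of the 5 complexes that are the general form of their position passed by edgeR, 4 had an unadjusted p under 0.05, and DESeq2 called 1. Cox6b2, a testis form of the complex IV subunit Cox6b1, fell from 1.18, 0.861 and 1.20 FPKM to 0.537, 0.439 and 0.411 FPKM, by 1.22 on the log2 scale (SE 0.289, adjusted p = 0.0215), at 7 to 32 counts per library. It entered the test only through the P0 libraries, where it was high, and of the 93 members with at least 10 counts in every library, which leave it out, 1 passed. Ndufaf3, an assembly factor of complex I, fell from 6.49, 6.86 and 7.05 FPKM to 5.70, 4.73 and 4.19 FPKM, by 0.49 (SE 0.13, adjusted p = 0.0336). The libraries did not overlap for either gene, and both calls were lost without P0 replicate 1, P0 replicate 3 or P30 replicate 2 (Ndufaf3 also without P0 replicate 2), with adjusted p of 0.064 to 0.131.

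Leaving out P30 replicate 3 raised the count of nuclear members that passed to 10, 6 higher and 4 lower, in a fit in which 31.7% of all tested genes passed, 15.5% higher and 16.2% lower. The members with the highest levels stayed close to 0 with all libraries. Atp5b measured 381, 378 and 384 FPKM in P0 and 398, 395 and 483 FPKM in P30 (0.14 ± 0.09), Cox6a1 measured 518, 546 and 521 FPKM and 574, 504 and 490 FPKM, and Cox4i1, a general subunit of complex IV, measured 213, 225 and 225 FPKM and 240, 221 and 237 FPKM (0.06 ± 0.06). The libraries of the groups overlapped for Cox6a1 and Cox4i1 and did not overlap for Atp5b, which did not pass.

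After SB431542 the nuclear members were lower more often than higher. Against iECDCs, 2 of the 93 tested rose and 18 fell (edgeR quasi-likelihood test, Benjamini-Hochberg adjustment), which is 2.15% higher and 19.4% lower beside 16.0% and 14.0% of all tested genes. The median log2 fold change was -0.18, with 73 of the 93 below 0, beside 0.00145 over all tested genes. By complex, 7 of 36 subunits of complex I fell and 1 rose (median -0.18), 2 of 8 of complex III fell (median -0.26), 3 of 11 of complex IV fell (median -0.34) and 2 of 16 tested of complex V fell (median -0.14). None of the 4 subunits of complex II passed in either direction by edgeR or by DESeq2, 1 had an unadjusted p under 0.05, and their median was 0.08.

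Within complex I, Ndufb3, an accessory subunit of its membrane arm, measured 71.4, 67.1 and 52.0 FPKM in P30 and 37.4, 46.6 and 40.7 FPKM in SBT, and fell by 0.60 on the log2 scale (SE 0.148, adjusted p = 0.0194). The groups did not overlap, and P30 replicate 3 and SBT replicate 2 were the libraries nearest to each other. Ndufs5, Ndufab1 (the mitochondrial acyl carrier protein), Ndufs4, Ndufb6, Ndufa7 and Ndufa8 fell by 0.36 to 0.58. Ndufa6 was the exception, at 21.9, 18.4 and 20.5 FPKM in P30 and 25.6, 29.4 and 30.6 FPKM in SBT, and rose by 0.51 ± 0.12 (adjusted p = 0.015). Ndufa2, the most abundant member of the complex, was at -0.11 ± 0.11.

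Complex III and complex IV held members that fell by similar amounts. Uqcr10, a small complex III subunit, measured 147, 135 and 122 FPKM in P30 and 79.3, 106 and 89.2 FPKM in SBT, and fell by 0.55 (SE 0.133, adjusted p = 0.0188, edgeR). It passed in 15 of 19 alternatives. Uqcrb fell by 0.51 (SE 0.162, adjusted p = 0.0461). Of complex IV, Cox6a1 measured 574, 504 and 490 FPKM in P30 and 403, 398 and 397 FPKM in SBT, and fell by 0.38 (SE 0.112, adjusted p = 0.0373). Its call passed in only 10 of 19 alternatives, and its value was -0.26 (adjusted p = 0.139, edgeR) with the length trend removed. Cox7a2 and Cox7b fell by 0.42 and 0.40, and each passed in 12 of 19 alternatives. All 11 nuclear complex IV subunits had values below 0, from -0.47 to -0.08. The mitochondrial subunits of the same complex, mt-Co1, mt-Co2 and mt-Co3, rose in this comparison, as did the mt-Cytb of complex III. In complex V, Atp5k and Atp5mpl, small subunits of its membrane part, fell by 0.48 and 0.39, while Atp5b was at -0.17 ± 0.15.

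Complex II, the succinate dehydrogenase of the Krebs cycle, is made of nuclear-encoded subunits only. Sdha, which holds the flavin, measured 66.5, 68.6 and 74.8 FPKM in P30 and 72.1, 71.2 and 68.2 FPKM in SBT (0.02 ± 0.10). Sdhb, the iron-sulfur subunit, measured 31.0, 29.3 and 44.8 FPKM in P30 and 35.3, 45.3 and 34.7 FPKM in SBT (0.14 ± 0.18, adjusted p = 0.564), and it was highest in P30 replicate 3 and SBT replicate 2, the libraries that stood apart. Sdhc was at 0.27 ± 0.10 with no overlap of the groups (adjusted p = 0.0683) and Sdhd at -0.10 ± 0.10. No difference of complex II from the other complexes was tested.

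Among nuclear members that passed, the 4 largest decreases were those of assembly factors. Of 17 tested, 4 fell (23.5%) and 0 rose, beside 14.0% and 16.0% of all tested genes. Their median of -0.18 was also that of all nuclear members. Ndufaf4, which acts in the assembly of complex I, measured 7.05, 6.88 and 5.55 FPKM in P30 and 2.43, 4.02 and 2.88 FPKM in SBT, and fell by 1.05 on the log2 scale (SE 0.201, adjusted p = 0.0081, edgeR). Cox18, which helps to insert mt-Co2 into the inner membrane, measured 6.11, 5.63 and 6.34 FPKM in P30 and 2.80, 4.21 and 3.02 FPKM in SBT, and fell by 0.84 (SE 0.179, adjusted p = 0.012). Ndufaf2, an assembly factor of complex I, measured 11.9, 10.9 and 9.90 FPKM and then 4.94, 7.82 and 5.63 FPKM, and fell by 0.82 (SE 0.179, adjusted p = 0.0129). Cox11, which delivers copper to complex IV, measured 9.40, 8.38 and 5.99 FPKM and then 4.09, 5.95 and 4.51 FPKM, and fell by 0.70 (SE 0.223, adjusted p = 0.0468). In all 4 the groups did not overlap, and SBT replicate 2 was the treated library nearest to the iECDCs.

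**Figure D4:**
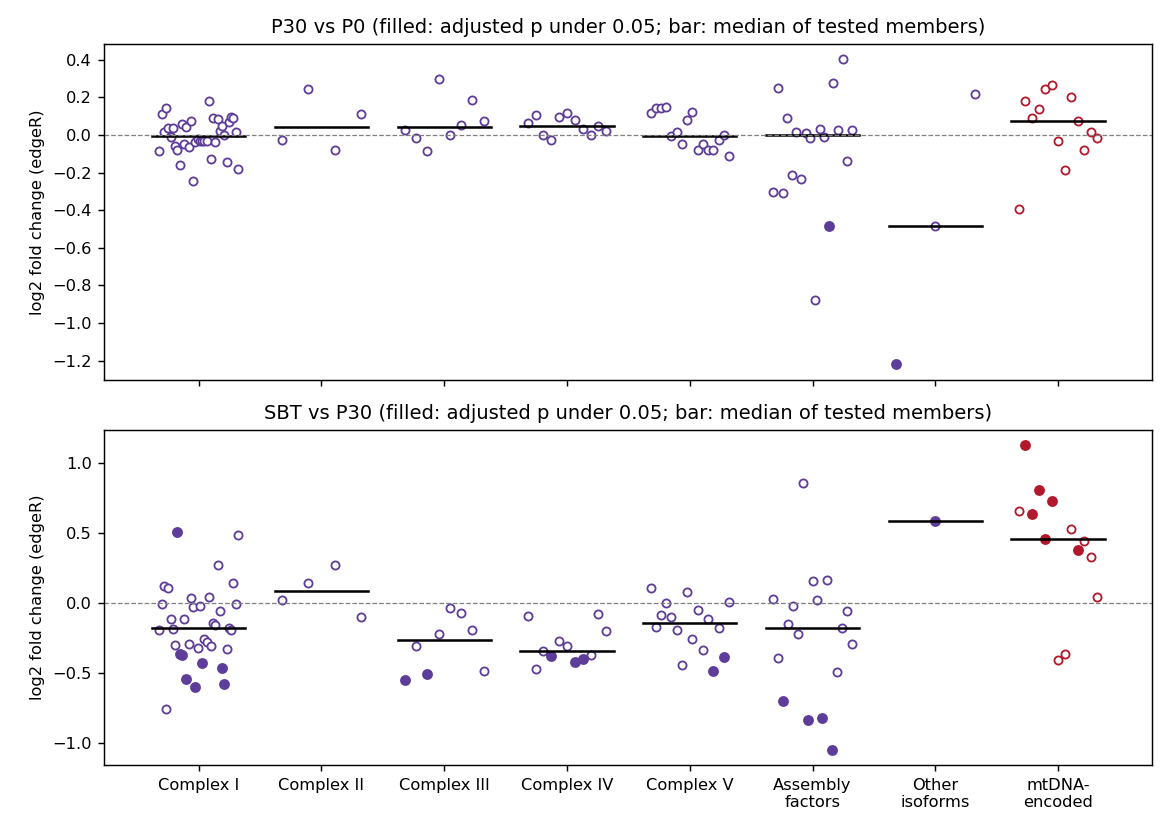
Log2 fold change (edgeR) of every tested member, grouped by complex, assembly factors, other isoforms and mitochondrially encoded mRNAs, for P30 against P0 (top) and SBT against P30 (bottom). Filled points have an adjusted p under 0.05 and bars are medians. In the lower panel the medians of complexes I, III, IV and V lie between -0.34 and -0.14, that of complex II is 0.08 and that of the mitochondrial mRNAs is 0.46.

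The count of 20 nuclear calls depended on single libraries. It was 1 to 3 without P30 replicate 1, P30 replicate 2, SBT replicate 1 or SBT replicate 3, and 48 without SBT replicate 2 (5 higher and 43 lower), when 50.2% of all tested genes passed, 25.3% higher and 24.8% lower. Without both libraries that stood apart it was 65 of 94 tested (69.2%), 8 higher and 57 lower. In that fit 64.5% of all tested genes passed, 32.6% higher and 31.9% lower. Of the nuclear members named for the size of their change, Ndufaf4 held in all 19 alternatives (highest adjusted p = 0.0426, edgeR). Cox7a2l, Ndufa6, Cox18, Ndufaf2, Cox11 and Ndufb3 were each lost without SBT replicate 3 and without at least 1 of P30 replicates 1 and 2, with adjusted p of 0.0521 to 0.164 and no change of direction. Short genes were lower in SBT than in P30 in general, with a median of -0.11 over the shortest of 5 equal groups of tested genes beside -0.20 over the 55 nuclear members in it, and 12 members (3 higher and 9 lower) passed once the trend with gene length had been removed.

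By library, the nuclear fall lay in SBT replicates 1 and 3. Over the 93 nuclear members with at least 10 counts in every library, the median log2 FPKM relative to each gene's mean over the 9 libraries was -0.24 and -0.17 in these, 0.03 in SBT replicate 2, and 0.02 to 0.13 in the P0 and P30 libraries. The mitochondrial mRNAs were different, with medians of 0.27, 0.50 and 0.25 in SBT replicates 1, 2 and 3 and of -0.46 to -0.08 in the P0 and P30 libraries. SBT replicate 2 was thus within the range of the P0 and P30 libraries in its nuclear members and above it in its mitochondrial ones.

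**Figure D5:**
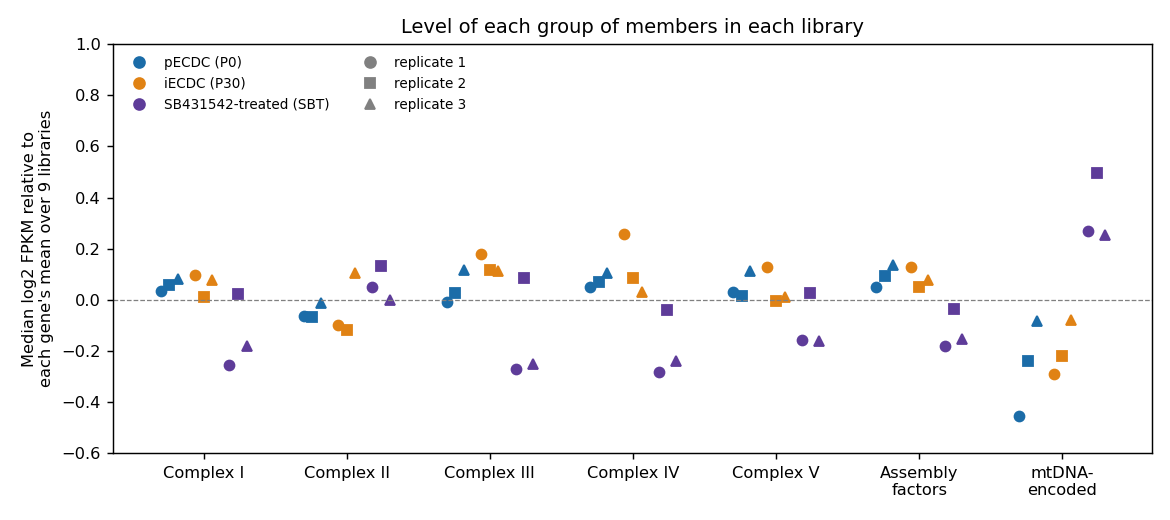
Median over the members of each group of log2 FPKM relative to the gene's mean over 9 libraries, for each library, coloured by group and shaped by replicate. For complexes I, III, IV and V and the assembly factors SBT replicates 1 and 3 lie below 0, and the mitochondrial mRNAs of all 3 SBT libraries lie above 0.

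Against pECDCs, 6 of the 96 nuclear members tested rose and 29 fell (edgeR, Benjamini-Hochberg), 6.25% and 30.2% beside 17.9% and 17.0% of all tested genes, with a median of -0.18. Cox11 measured 9.05, 10.4 and 9.90 FPKM in P0 and fell by 1.002 on the log2 scale (SE 0.156, adjusted p = 0.00376), Ndufaf2 fell by 0.82 and Cox18 by 0.81. Sdhb, from 28.0, 29.6 and 30.2 FPKM in P0, rose by 0.40 ± 0.11 (adjusted p = 0.0285). This call was lost without any one of the P0 libraries (adjusted p up to 0.116). Cox17, a copper chaperone of complex IV counted at only 22 to 71 reads, rose by 0.65 ± 0.19 (adjusted p = 0.0376) and passed in 10 of 18 alternatives. Without SBT replicate 2 the count was 67, 10 higher and 57 lower, when 64.1% of all tested genes passed, 31.7% higher and 32.3% lower.

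Several positions in complex IV have a general form and others restricted to certain tissues. Cox7a2l, a relative of Cox7a2, is described with them. Cox7a2l measured 69.5, 69.0 and 70.6 FPKM in P0, 72.7, 75.3 and 97.7 FPKM in P30, and 127, 114 and 124 FPKM in SBT. Every SBT library was above every other library, and P30 replicate 3 was the highest of its group. It rose by 0.59 ± 0.13 against P30 (adjusted p = 0.0147, edgeR) and by 0.82 ± 0.07 against P0 (adjusted p = 0.000485), and the second call held in all 18 alternatives. Cox7a2 measured 74.2, 71.3 and 74.8 FPKM in P0, 81.9, 73.1 and 80.4 FPKM in P30, and 50.1, 66.4 and 57.9 FPKM in SBT, so that Cox7a2l was above Cox7a2 in all SBT libraries, per length, and near it in the primary cells.

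The muscle form Cox7a1 was low in all groups, at 1.22, 1.22 and 2.32 FPKM in P0, 1.11, 2.05 and 0.243 FPKM in P30, and 0.746, 0.0889 and 0.103 FPKM in SBT. It had 13 to 29 counts in P0 and 7, 1 and 1 in SBT. It is among the 29 members counted as lower against P0, as is Cox6b2, but both entered that test only through the P0 libraries, where they were high, so these calls are no independent support and no fold is given for Cox7a1. The muscle form Cox6a2 had 4 to 9 counts in P0, 1 to 3 in P30 and 0 to 3 in SBT, too few to be tested, whereas its general partner Cox6a1 was the most abundant nuclear member. Cox4i2, the lung form of Cox4i1, had at most 4 counts, Ndufa4l2 at most 2, the testis form Cox7b2 at most 2, the muscle form Cox8b at most 1 and the testis form Cox8c 0 in every library. Their partners Cox4i1, Ndufa4, Cox7b and Cox8a measured 208 to 240, 62.2 to 85.2, 54.9 to 88.2 and 311 to 369 FPKM. These forms did not pass the filter on low counts, so no fold was computed for them. Besides them, a second identifier of Atp5o had no count and was not tested, and Cox20 (4 to 24 counts), Cox6b2 (6 to 32 counts) and Cox7a1 (1 to 29 counts) were tested only in the comparisons with P0.

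The promoters of the nuclear members were searched for the motifs of factors known to act on respiratory genes, on both strands and within 250 bases before to 50 after the start in RefSeq windows on GRCm38.p6. Of the 103 nuclear members 84, with 83 symbols, had a window. The palindromic NRF1 motif, spelled in capitals in the lines that follow, was found in 7 of 83 symbols (8.43%) and in 1.47% of all 17492 genes with such windows. The YY1 motif was found in 7 of 83 (8.43%) beside 1.41%, and the ETS motif CCGGAAGT, bound by GABPA, in 9 of 83 (10.8%) beside 5.69%. The 7 NRF1 matches are shown with up to 20 bases on each side, 5′ to 3′ on the gene's strand, with the motif in capitals, since Ndufaf4, Cox6a1 and Atp5k were among the members that fell in SBT against P30 and the other 4 were not. Against P0, Ndufaf5 fell as well, by 0.46 (SE 0.133, adjusted p = 0.0345, edgeR).

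Ndufaf4 (chr4:24897950-24897999, plus strand): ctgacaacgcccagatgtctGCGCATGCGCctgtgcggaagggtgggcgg

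Cox6a1 (chr5:115349091-115349140, minus strand): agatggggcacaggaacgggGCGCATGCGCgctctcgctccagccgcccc

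Atp5k (chr5:108434420-108434469, minus strand): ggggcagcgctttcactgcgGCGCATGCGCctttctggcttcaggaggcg

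Ndufaf5 (chr2:140170642-140170691, plus strand): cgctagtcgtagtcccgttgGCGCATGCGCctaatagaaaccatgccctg

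Uqcrc1 (chr9:108936658-108936697, plus strand): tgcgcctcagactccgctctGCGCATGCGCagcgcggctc

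Ndufa11 (chr17:56717682-56717731, plus strand): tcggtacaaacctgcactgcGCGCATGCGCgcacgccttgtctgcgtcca

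Atp5g2 (chr15:102671060-102671109, minus strand): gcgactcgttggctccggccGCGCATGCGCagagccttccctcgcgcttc

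The motif began 113 bases before the start in Ndufaf4, 162 in Cox6a1, 60 in Ndufa11, 50 in Atp5k and 42 in Atp5g2, and after the start in Ndufaf5 and Uqcrc1. In SBT against P30, Ndufaf5 was at -0.49 (adjusted p = 0.0519, edgeR), Uqcrc1 at -0.22, Ndufa11 at 0.12 and Atp5g2 at 0.08, so members that share the motif had values on both sides of 0. A match is a string of letters and no measured binding.

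Genes that act on the same complexes without being members were counted from lists. The mitochondrial ribosome, which translates the mitochondrial mRNAs, had 27 of its 77 tested protein genes lower and 0 higher in SBT than in P30 (35.1% beside 14.0% of all tested genes lower), with a median of -0.38. Of 32 genes for mitochondrial DNA and RNA handling 5 fell (15.6%) and 0 rose (median -0.15), a share near that of all tested genes, among them Trmt10c, a subunit of mitochondrial RNase P that cuts tRNAs from the long transcripts, by 0.66 (SE 0.134, adjusted p = 0.0101, edgeR), and Lrpprc, which stabilises mitochondrial mRNAs, by 0.36 (SE 0.094, adjusted p = 0.0231). The 31 tested assembly factors outside the symbol rule had 1 higher and 3 lower (9.68% lower, below the 14.0% of all tested genes), with Tmem70, an assembly factor of the ATP synthase, at 30.7, 30.8 and 27.6 FPKM in P30 and 16.2, 21.5 and 15.5 FPKM in SBT (fell by 0.73, SE 0.142, adjusted p = 0.00856). Of 10 tested carriers and import genes 0 rose and 2 fell, and of 14 Krebs cycle genes 1 rose and 1 fell. Cycs, the cytochrome c that carries electrons from complex III to complex IV, fell by 0.93 (SE 0.253, adjusted p = 0.028, edgeR). It measured 51.0, 47.3 and 48.5 FPKM in P30 and 18.5, 38.2 and 20.1 FPKM in SBT. In P30 against P0, 3 of 77 tested genes of the mitochondrial ribosome rose (3.90%, beside 7.21% of all tested genes) and 0 fell. Each of the other lists in this paragraph held at most 1 gene that passed.

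Among 14 tested regulators of mitochondrial biogenesis 4 rose and 1 fell in SBT against P30. These shares of 28.6% and 7.14% stand beside 16.0% and 14.0% of all tested genes. Of the 4, Ppargc1a, the coactivator PGC-1α, was counted 3 to 6 times per library in P30 and 28, 13 and 32 times in SBT, at levels of at most 0.269 FPKM, and Ppara, a nuclear receptor for fatty acids, was counted 2 to 6 times in P30 and 32, 14 and 37 times in SBT. Both entered the test only through the SBT libraries, where they were high, so their calls are no independent support and no fold is given for them. The share of 28.6% counts both, so no excess over all tested genes is read from it. Ppargc1a had 12 counts in each P0 library, and against P0 it did not pass (adjusted p = 0.0519, edgeR). Ppargc1b, a relative of Ppargc1a, rose by 1.19 ± 0.28 (adjusted p = 0.0164). Nrf1 (-0.13 ± 0.14), Gabpa (-0.11 ± 0.13), Esrra (-0.19 ± 0.12) and Tfam (-0.14 ± 0.12), which act on respiratory genes or on mitochondrial DNA itself, did not pass. In P30 against P0, 2 of 12 tested regulators rose (16.7%) and 0 fell, beside 7.21% and 9.21% of all tested genes. Among them was Esrra, which rose by 0.29 ± 0.07 (adjusted p = 0.017, edgeR). Of 10 hypoxia markers, 3 rose and 0 fell in SBT against P30, beside 16.0% and 14.0% of all tested genes, and 1 rose and 2 fell in P30 against P0, with Bnip3, a mitophagy receptor, in SBT against P30 at 1.09 ± 0.24 (adjusted p = 0.0123) and Pdk1, which turns pyruvate away from the Krebs cycle, at 1.06 ± 0.23 (adjusted p = 0.0132).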

How the data were processed

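The deposited table holds 9 mouse RNA-seq libraries, 3 in each of P0, P30 and SBT, with total counts of 16568306 to 23951392. The authors deposited raw read counts per gene. The FPKM values they deposited beside them were counts scaled by gene length and library. Submitters' processing notes name TopHat2 2.0.9, Bowtie2 2.0.6 and mm9, whereas the coordinates of 110 of the 116 members were those of GENCODE M21 on GRCm38. The counting program and its use of strand were not given in the sources used here. The authors' own fold changes and p-values in the same table were not used. The members and lists were chosen with earlier results of these data known.

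The count test was that of edgeR 4.0.16 under R 4.3.3 (TMM, filterByExpr with a minimum count of 10 and a minimum total of 15, quasi-likelihood test, Benjamini-Hochberg adjustment over all tested genes, threshold 0.05), each pair of groups fitted on its own 6 libraries and without a replicate block. Simulated data had 200 genes changed by 1 on the log2 scale. For P30 against P0 (13752 genes) 166 were recovered with 9 false calls. For SBT against P30 (13559 genes) 128 were recovered with 10, and for SBT against P0 (14015 genes) 132 with 9. No simulated library stood apart from its group, and most changes of the members were smaller than 1. These numbers therefore do not describe how the test fares on the members in these libraries. Alternatives were DESeq2 1.42.0, RLE or upper-quartile factors, no filter, a minimum of 10 counts in each library, a joint fit of all groups, a replicate block, library sizes without mt- genes, limma 3.58.1 on log2(FPKM + 1) and log2(FPKM + 0.1), and leaving out each library. Added after seeing the data were leaving out P30 replicate 3 and SBT replicate 2 together, adding the copies' counts to mt- genes, and removing the trend with gene length. Copies were searched for with blastn 2.17.0 among GENCODE M21 transcripts and not in the whole genome. Summaries used pandas 2.3.3 and numpy 2.4.6 under python 3.11.15, and plots used matplotlib 3.10.9.

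Named genes were all mt- members, tissue forms with their general partners, the most abundant member of each complex, and per comparison up to 5 nuclear members with the largest rise and 5 with the largest fall among those past the threshold without overlap of libraries. From the lists outside the rule, genes past the threshold with a log2 fold change of at least 1 were named, with Nrf1, Gabpa, Esrra and Tfam. Other names were chosen after their values were seen. The values of 1 member are not reported here.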

Additional observations from a re-analysis of the deposited data

How the results depend on the processing

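In SBT against P30 and against P0 the medians kept their signs in all alternatives, from -0.29 to -0.09 and from -0.24 to -0.12 for nuclear members and from 0.38 to 0.76 and from 0.40 to 0.74 for mt- members. Nuclear members called in P30 against P0 numbered 1 with at least 10 counts in every library, 0 with all 9 libraries in the fit, and 0 to 10 when 1 library was left out. mt- members called there numbered 2 without a filter on low counts and 0 to 3 when 1 library was left out, and mt-Nd1 went from -0.03 to 0.23 without P30 replicate 3 (-0.20 to 0.23 over the libraries left out). In SBT against P30, nuclear calls numbered 36 with all 9 libraries, 12 with the length trend removed, 65 without both libraries that stood apart, and 1 to 48 when 1 library was left out (median -0.29 to -0.12). Of all tested genes 30.0% passed in the main fit, 50.2% without SBT replicate 2 and 64.5% without both libraries that stood apart. mt- calls numbered 3 with limma on either FPKM scale, 12 without both libraries that stood apart (median 0.76), and 1 to 8 when 1 library was left out (median 0.38 to 0.74). In SBT against P0, nuclear calls numbered 12 to 67 when 1 library was left out, and the mt- median lay between 0.40 and 0.74, with 7 to 10 mt- calls, and 8 with all 9 libraries in the fit. The mt- to nuclear ratio, as a difference in log2, was 0.42 in SBT against P30 and 0.41 against P0, and 0.74 and 0.78 as medians of genes. No pairing by replicate number was seen, with correlations of -0.207 to 0.033 between deviations of same-numbered libraries. Both libraries that stood apart weigh on these values, so a pairing is not excluded. With a replicate block 1 nuclear member was called in P30 against P0, and 8 nuclear and 3 mt- members in SBT against P30. Beyond what fewer samples or genes imply, the cause was not tested.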
